A study of Mus musculus with 3 samples.

Results

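Expression of 40 genes of the cell cycle, of 27998 genes counted, was followed across the leukocyte lineages of the mouse aorta. The 40 genes were taken by name for their known phase of the cycle, with no threshold on a measured value, and all of them, protein-coding genes in the annotation, had rows in the count matrices. They comprised 23 genes of G2 and mitosis and 12 genes of DNA replication in S phase. The other 5, called broad here, encode products that serve chromatin or the cytoskeleton. RNA was counted as unique molecular identifiers (UMIs) in single cells from 3 libraries of the suprarenal aorta, 1 for each group, prepared with 10x Genomics 3' v2 chemistry. The control library pooled 5 C57BL/6 mice fed chow. The room air library pooled 5 Apoe-/- mice, which lack the apolipoprotein that clears lipoprotein remnants from blood, on a Western diet in room air for 16 weeks. The aneurysm library pooled 4 Apoe-/- mice on that diet that breathed cigarette smoke for 16 weeks and were chosen for a measurable aneurysm. CD45+CD31- and CD45-CD31+ cells were sorted out of every pool, so that leukocytes and endothelial cells were selected and the share of each was set by the sort. Room air against control therefore compares Apoe loss and diet together, and aneurysm against room air compares smoke and selection for dilatation together; these cannot be told apart. With 1 pooled library a group there is no replicate, no difference was tested, and every interval covers counting error only.

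A cell that divides copies its DNA in S phase, checks the copy in G2 and separates the chromosomes in mitosis. Cyclins switch on cyclin-dependent kinases to start each step, and ubiquitin ligases destroy the cyclins to end it. Many genes of mitosis are transcribed mainly from late S phase to mitosis, through promoter elements read by the DREAM and MuvB complexes, while many replication genes are driven earlier by E2F factors. In the aorta, local division maintains resident macrophages and is one of the sources of macrophages in atherosclerotic plaques, beside recruitment of monocytes from blood.

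Promoter sequences are shown because mitosis and G2 members moved largely together in some lineages, and the motifs searched are those known from promoters of each phase. Few cells held many of the mitosis and G2 UMIs there, and S phase members moved less uniformly. A link of motifs to levels was not tested. RefSeq promoters of build GRCm38.p6 matched 33 of the 40 members and gave 34 windows of 250 bases upstream of a start, since Mcm7 had 2 starts. No sequence was matched for Ccna2, Aurkb, Tpx2, Mcm4, Gins2, Smc4 and Stmn1. On both strands, CCAAT, the letters bound by NF-Y, stood in 18 of 20 mitosis and G2 windows (90%) and in 9 of 11 S phase windows (81.8%), against 33.8% of 32817 windows of all genes. At least 2 copies of CCAAT stood in 12 of 20 mitosis and G2 windows (60%) and in 5 of 11 S phase windows (45.5%), against 10.1% of all windows. TTTGAA, the letters of the cell cycle homology region, stood in 7 of 20 mitosis and G2 windows (35%) and in 1 of 11 S phase windows, against 16.0% of all windows, and CCAAT stood in each of those 7 windows. An E2F site, searched as TTTCCCGC or TTTGGCGC, stood in 0 of 20 mitosis and G2 windows and in 3 of 11 S phase windows (27.3%), against 1.30% of all windows. The 3 motifs share no overlapping letters in the stretches shown. A match describes these letters only, not a site in use, and no match says only that the letters are not in the window.

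The 120 bases before the start of 7 members are printed 5′ to 3′ on the strand of the gene, with CCAAT (or ATTGG, its reverse), TTTGAA (or TTCAAA) and the E2F letters in capitals. They were picked after the matches were seen, to show each arrangement. Top2a (topoisomerase that untangles chromosomes, chr11:99024190-99024309, minus strand) holds 3 CCAAT and 1 TTTGAA, and Ccnb2 (cyclin B2, chr9:70421555-70421674, minus strand) holds 3 CCAAT. Kif11 (a spindle motor, chr19:37376262-37376381, plus strand) holds 1 of each, and Mki67 (the chromosome surface protein Ki-67, chr7:135716380-135716499, minus strand) holds 2 TTTGAA. Mcm3 (chr1:20820313-20820432, minus strand) and Mcm6 (chr1:128359706-128359825, minus strand) encode subunits of the replicative helicase, with 3 CCAAT in the former and 2 CCAAT and 2 E2F matches in the latter. Birc5 (survivin, chr11:117849117-117849236, plus strand), a mitotic gene of the chromosomal passenger complex, holds none of the 3 motifs in this stretch.
Top2a: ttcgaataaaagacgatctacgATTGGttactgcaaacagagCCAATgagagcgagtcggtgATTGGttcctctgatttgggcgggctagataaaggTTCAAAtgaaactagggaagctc
Ccnb2: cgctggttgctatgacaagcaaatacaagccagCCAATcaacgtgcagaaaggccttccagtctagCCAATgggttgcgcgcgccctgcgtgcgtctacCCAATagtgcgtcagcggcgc
Kif11: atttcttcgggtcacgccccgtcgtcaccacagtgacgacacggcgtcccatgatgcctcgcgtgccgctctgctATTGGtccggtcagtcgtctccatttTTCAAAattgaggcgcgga
Mki67: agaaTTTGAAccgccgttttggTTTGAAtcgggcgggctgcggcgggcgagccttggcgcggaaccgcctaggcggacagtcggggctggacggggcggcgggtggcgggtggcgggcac
Mcm3: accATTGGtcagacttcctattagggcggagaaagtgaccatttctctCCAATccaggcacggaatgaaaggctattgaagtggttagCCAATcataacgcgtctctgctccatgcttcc
Mcm6: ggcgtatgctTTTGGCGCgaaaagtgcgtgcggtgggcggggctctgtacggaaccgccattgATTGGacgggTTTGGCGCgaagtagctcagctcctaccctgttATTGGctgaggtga
Birc5: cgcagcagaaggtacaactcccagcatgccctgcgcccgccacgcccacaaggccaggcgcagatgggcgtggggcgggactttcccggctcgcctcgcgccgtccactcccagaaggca

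The control library held 2568192 UMIs, that of room air 9998517 and that of aneurysm 16698309. After filters, 773, 1821 and 2775 cells were kept, with a median of 2681, 3835 and 4384 UMIs, and 4, 9 and 5 of their barcodes also occurred in another library. Levels are given as CPM, a gene's share of all UMIs of the cells in question on the usual scale. Apoe stood at 10533 CPM in control and at 17.1 and 13.1 CPM in the Apoe-/- libraries, room air and aneurysm. Ptprc, which encodes CD45, was detected in 49.5%, 74.4% and 75.5% of cells, and in 24 of 34, 88 of 93 and 97 of 105 dividing cells as defined below. Pecam1, which encodes CD31, was detected in 44 of 46, 35 of 37 and 26 of 26 cells of cluster 17 (Cytl1, Clu, Eln); Ptprc was detected in 4, 4 and 5 of those cells. Libraries also differed in the RNA that cells carry from other lineages: marker genes of B cells, T cells and macrophages stood, in classes that should lack them, at a median of 9.39%, 24.8% and 13.7% of their level in the control, room air and aneurysm libraries. Applied to the 23 mitosis and G2 members summed, that share is 29.99, 79.4 and 37.3 CPM, a level called the free RNA level here.

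Cells were grouped by clustering without 193 cell cycle genes, so that a dividing cell was placed with its lineage. Clusters were named from markers with the suffix -like, or kept by number where markers were mixed or absent. A cell was counted as dividing when it held a UMI of at least 3 of the 23 mitosis and G2 members after every cell was thinned to 1500 UMIs, which left out 130 shallower control cells. By that count 18 of 643 control cells were dividing (2.80%, exact Clopper-Pearson 95% interval 1.67 to 4.39). In room air 34 of 1821 cells were dividing (1.87%, 1.30 to 2.60), and in aneurysm 44 of 2775 (1.59%, 1.15 to 2.12). The 3 intervals overlap. Without thinning the shares were 4.40%, 5.11% and 3.78%, 232 cells in all, and dividing cells were deep: their median was 6642.5, 11033 and 11884 UMIs against 2591, 3609.5 and 4185 in the other cells. Of the thinned cells, 12, 25 and 27 held at least 5 members and 3, 4 and 9 held exactly 3, but 9, 21 and 21 held exactly 2. The plot of cells by number of members shows these tails. Without thinning the limit separated cells less. There 11, 47 and 48 dividing cells held 3 to 5 members, and 7, 147 and 155 cells held exactly 2.

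**Figure D1:**
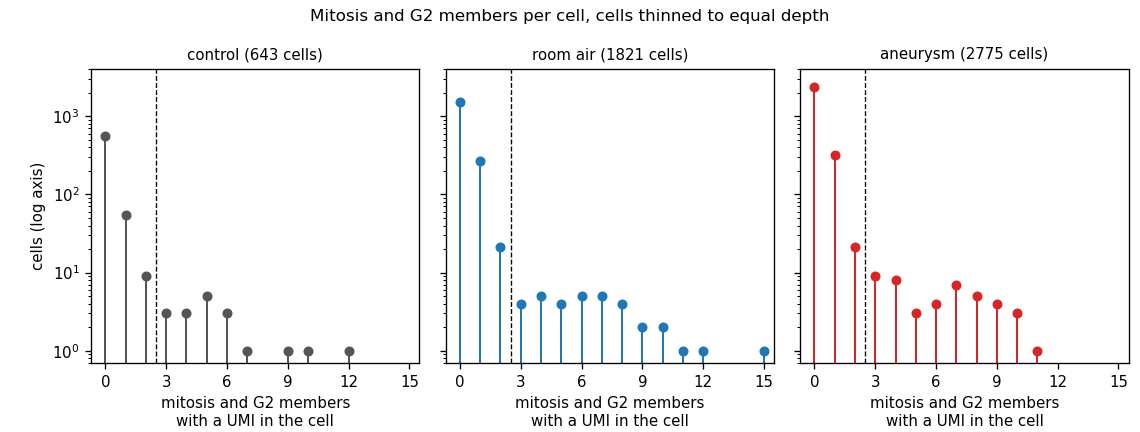
Kept cells of each library by the number of the 23 mitosis and G2 members with a UMI, after thinning to 1500 UMIs. The y axis counts cells on a log scale and the dashed line marks the limit of 3 members; 18 control, 34 room air and 44 aneurysm cells lie at or beyond it.

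When all genes were used for clustering, 107 cells formed a cluster of their own led by these genes, and 106 of them were dividing by the count without thinning. In the clustering without cell cycle genes the same cells fell among 12 classes or clusters: 36 were macrophage-like, 15 T cell-like, 14 plasma cell-like, 11 cDC1-like, 10 cDC2-like and 7 NK-like, and the rest were spread over 6 others. Macrophage-like clusters were named from macrophage markers, so the level of these markers in their dividing cells is a description and no check of lineage. Summed macrophage markers stood at 18165, 18937 and 20490 CPM in dividing macrophage-like cells of control, room air and aneurysm, against 23708, 19002 and 19674 CPM in the other macrophage-like cells.

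The members differed in how far they separate dividing from other cells, as the plot of dividing over other cells shows. For each member, dividing cells were chosen by the mitosis and G2 members other than itself, without thinning and over all libraries. Cells with S phase members only therefore count among the other cells. The ratios thus do not set S phase and mitotic members on equal terms. Because these genes travel together in the same cells, the ratios describe the members and support nothing else. The 23 mitosis and G2 members had a median ratio of 35.0, from 6.85 for Cenpa, the centromeric histone, to 293 for Bub1, a spindle checkpoint kinase. Hmmr, a spindle protein, stood 234-fold higher in dividing cells, Plk1, a kinase of mitotic entry, 99.5-fold, and Ccna2, cyclin A2, 97.7-fold. Ube2c (ENSMUSG00000001403, mm10 chr2:164769898-164778822, plus strand), the ubiquitin-conjugating enzyme that works with the anaphase-promoting complex, stood 75.3-fold higher (95% interval 59.7 to 96.0), Birc5 47.8-fold, Top2a 35.0-fold and Mki67 (ENSMUSG00000031004, mm10 chr7:135689784-135716361, minus strand) 33.2-fold (25.5 to 43.5). Racgap1, which acts in cytokinesis, stood 9.21-fold higher. The 12 S phase members had a lower median ratio of 4.81, from 2.44 for Mcm4 to 46.3 for Rrm2, the regulated subunit of ribonucleotide reductase. Tk1, thymidine kinase, reached 17.8, and Pcna, the sliding clamp of DNA polymerase, only 3.05. The 5 broad members had a median of 5.97, from 3.06 for Smc4, a condensin subunit, to 19.8 for Stmn1, a microtubule destabiliser.

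**Figure D2:**
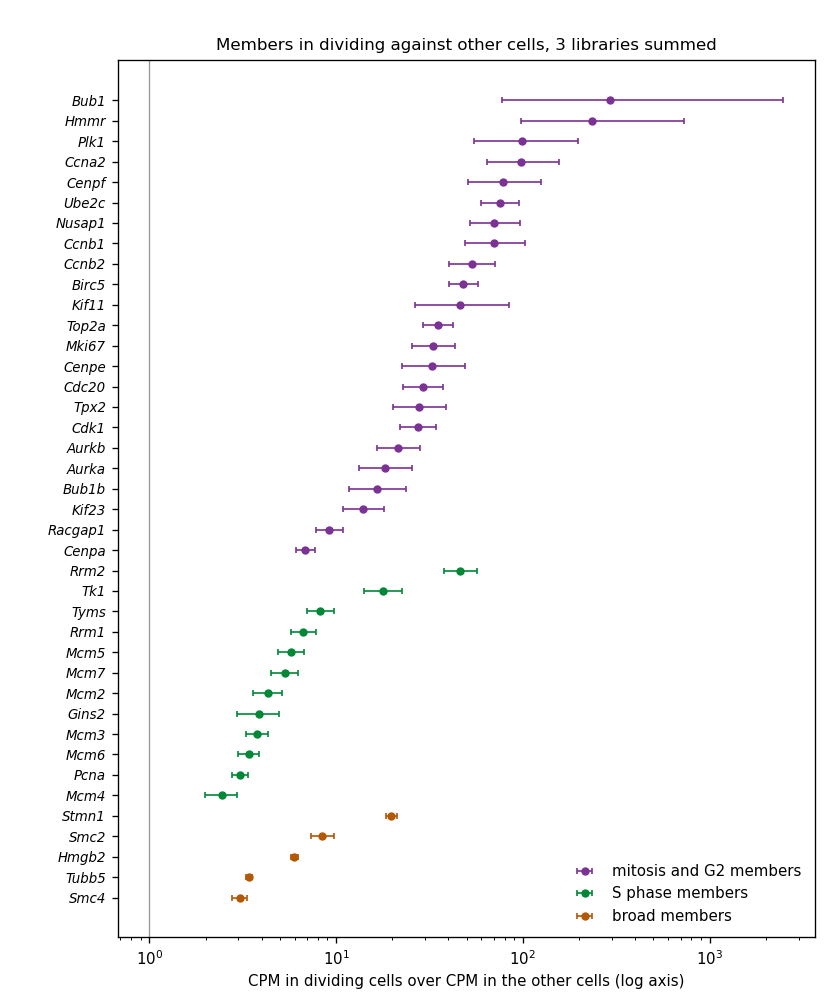
Ratio of the level (CPM) of each of the 40 members in dividing over other cells, all libraries summed, on a log axis and grouped by role; bars are exact 95% intervals of counting error. Mitosis and G2 members, which chose the dividing cells, lie to the right (median 35.0) of S phase members (median 4.81).

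The same contrast appears per cell. An Mki67 UMI was found in 46.7% of dividing and in 1.34% of other cells, and a Birc5 UMI in 62.2% and 2.76%. Tubb5, a tubulin, was found in 96.98% of dividing but also in 70.3% of other cells. Dividing cells held a median of 77.2% of a mitosis and G2 member's UMIs, 33.3% of an S phase member's and 38.4% of a broad member's. So for most mitotic genes a class's summed level reads a few cells. For the replication genes it reads the other cells too, and these include cells with S phase members only. Among the 175 cells with an Mki67 UMI, Top2a was found in 53.7%, against 3.14% of the cells without one, and Pcna in 62.9% against 24.6%.

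Over all kept cells the members hardly separated the libraries. Summed mitosis and G2 members stood at 319, 320.4 and 272 CPM in control, room air and aneurysm. Summed S phase members stood at 296, 359 and 327 CPM and the broad members at 999, 1097 and 965 CPM. Single members moved more: Mki67 stood at 17.7, 13.6 and 9.37 CPM in control, room air and aneurysm. Cdk1, the kinase that drives entry into mitosis, stood at 22.5, 17.3 and 11.4 CPM, while Cdc20, an activator of the anaphase-promoting complex, stood at 7.09, 10.3 and 14.9 CPM, in the opposite order. Relative to control, room air had 6 of 40 members at least 1.5-fold higher, against 20.8% of all genes tested, and 2 at least 1.5-fold lower, against 11.6%. In aneurysm against room air 0 members were at least 1.5-fold higher (3.28% of genes) and 4 were lower (Cdk1, Nusap1, Kif11 and Stmn1; 9.17% of genes). Here and below, genes tested are those with at least 20 UMIs over both libraries together, whose ratio was then set against 1.5-fold. No p-value was computed. In small classes a scarce gene passes this limit more readily through the library where it is high. Counts of members there are a description, and the share over all genes passed the same limit.

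Dividing cells were not spread evenly over lineages, and the plot of dividing cells by class gives each class with its interval. Macrophage-like cells made up 13 of 18 dividing cells in control (72.2%, 95% interval 46.5 to 90.3) and 47.1% of all cells at that depth. They made up 18 of 34 in room air (52.9%, 35.1 to 70.2; 28.9% of cells) and 6 of 44 in aneurysm (13.6%, 5.17 to 27.4; 20.6% of cells). Their share of dividing cells was thus above their share of cells in control and room air and below it in aneurysm. In control and aneurysm, however, the share of cells lay inside the interval. The aneurysm order also changed with depth. Without thinning, macrophage-like cells made up 24 of 105 dividing aneurysm cells (22.9%, 15.2 to 32.1), above their 20.6% of cells. T cell-like cells made up 1 of 18, 9 of 34 (26.5%) and 8 of 44 (18.2%), with 22.5% of room air cells and 20.4% of aneurysm cells. In aneurysm the remainder came largely from small classes. cDC1-like cells, dendritic cells specialised in cross-presentation, and plasma cell-like cells, which secrete antibody, made up 7 of 44 dividing cells each (15.9%), from 2.45% and 0.829% of cells, and NK-like cells made up 5 of 44 (11.4%) from 4.76% of cells. Weighted to 1 common makeup of 7 classes, 2.02% of control, 1.82% of room air and 1.29% of aneurysm cells were dividing.

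**Figure D3:**
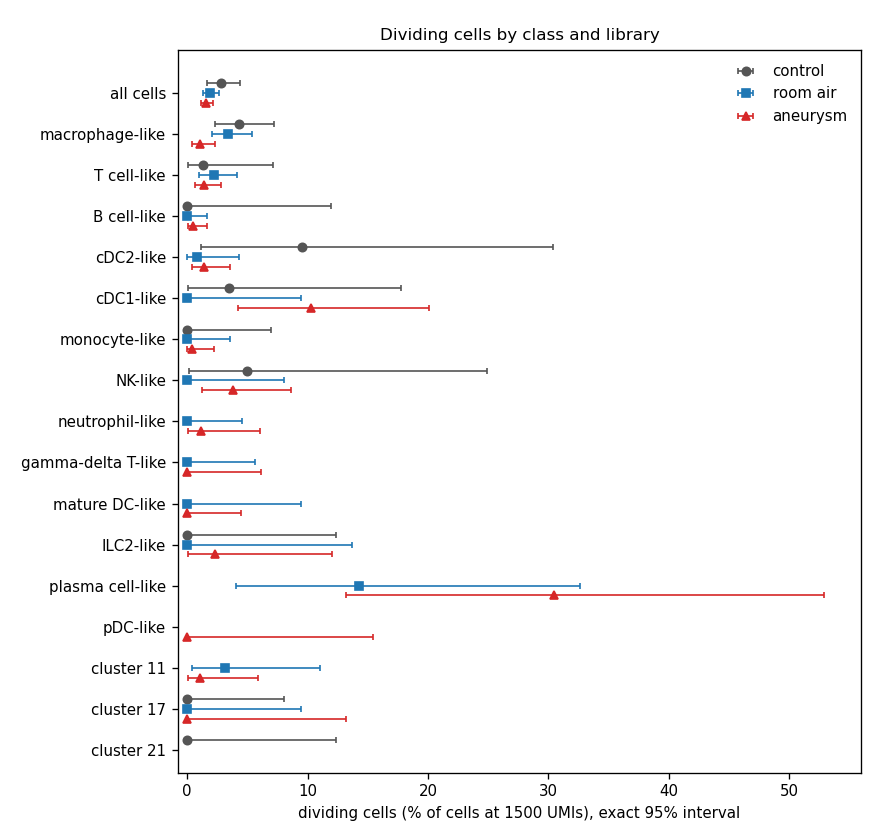
Percent of dividing cells in each class of at least 20 cells and each library, after thinning to 1500 UMIs; bars are exact 95% intervals. Macrophage-like cells show 4.29%, 3.42% and 1.05% in control, room air and aneurysm, and plasma cell-like cells have the highest shares.

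Within macrophage-like cells, 13 of 303 control cells were dividing (4.29%, 95% interval 2.30 to 7.23). In room air 18 of 527 were (3.42%, 2.04 to 5.34) and in aneurysm 6 of 571 (1.05%, 0.387 to 2.27). The room air and aneurysm intervals overlap slightly. Without thinning the shares were 5.30%, 8.54% and 4.20%, at median depths of 3296, 6300 and 7454 UMIs, so aneurysm was lower than room air on both counts although its cells were deeper. Control stood above aneurysm in both, but its place relative to room air changed with thinning. The class rested on different clusters in different libraries: cluster 5 (Apoe, Ccl24, Lyve1) held 300 of the 321 control cells, while clusters 1 (Ccl12, Cxcl10, Ifit3) and 2 (Spp1, Mmp12, Gpnmb) held most cells of the other libraries. In cluster 5 of control 10 of 282 cells were dividing (3.55%). In cluster 2 of room air 11 of 203 were (5.42%) and in aneurysm 5 of 264 (1.89%), and in cluster 1 of room air 6 of 264 (2.27%) and in aneurysm 1 of 209 (0.478%).

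Mitosis and G2 members were lower in aneurysm than in room air macrophage-like cells almost without exception. Their sum was 360.5, 393 and 154 CPM in control, room air and aneurysm. Aneurysm was 2.56-fold lower than room air (95% interval 2.34 to 2.80), and the room air over control ratio was 1.09 (0.982 to 1.21). These UMIs come from few cells, the 5 richest cells holding 46.4%, 30.5% and 45.3% of them, so the intervals understate the error. Of 39 members tested, 26 were at least 1.5-fold lower in aneurysm, against 7.55% of 10219 genes, and 0 were higher, against 3.54% of genes; the median log2 ratio was -0.93, against -0.03 over all genes. By role, 21 of 22 mitosis and G2 members were lower, with Cenpa as the exception, and 2 of 12 S phase members and 3 of 5 broad members. The plot of members in macrophage-like cells shows this split.

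Among the regulators of mitotic entry, Cdk1 stood at 21.6, 22.5 and 8.75 CPM in control, room air and aneurysm macrophage-like cells. Ccnb1, cyclin B1, stood at 8.01, 13.002 and 3.33 CPM, and Ccnb2 at 27.2, 19.5 and 7.71 CPM. Aneurysm was the lowest library for all 3, by 2.57-fold, 3.90-fold and 2.53-fold against room air. Of the kinases that build and check the spindle, Aurka stood at 4.01, 9.25 and 4.79 CPM and Aurkb, of the chromosomal passenger complex, at 8.01, 11.001 and 6.25 CPM. Plk1 stood at 2.40, 5.75 and 1.25 CPM. For Aurka the aneurysm level lay above control, whereas for Aurkb and Plk1 it lay below both. Bub1 had 0 UMIs in control and stood at 2.75 and 1.46 CPM in the others, and Bub1b, a partner in the checkpoint, stood at 3.20, 7.25 and 2.92 CPM.

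Among exit factors Ube2c separated the libraries furthest, with 32.0, 37.5 and 6.88 CPM in control, room air and aneurysm, 5.45-fold lower than room air (ratio 0.183, 95% interval 0.122 to 0.269). Cdc20 stood at 10.4, 11.001 and 6.67 CPM. Both were lowest in aneurysm, though Cdc20 by 1.65-fold only. Mki67 stood at 22.4, 16.8 and 4.58 CPM, 3.65-fold lower in aneurysm than in room air (ratio 0.274, 0.161 to 0.449), and its UMIs were found in 14 of 321, 27 of 527 and 16 of 571 cells. In B cell-like cells, at lower median depths of 1295, 2204 and 2384 UMIs, they were found in 0 of 99, 2 of 221 and 3 of 445. Top2a stood at 27.2, 30.004 and 11.7 CPM and Birc5 at 37.7, 48.0 and 16.7 CPM. Control and room air lay close together for both and aneurysm below. Of the spindle genes, Nusap1, which bundles microtubules, stood at 19.2, 23.8 and 4.38 CPM (5.43-fold lower in aneurysm than in room air). Kif11, which pushes spindle poles apart, stood at 5.61, 4.00 and 1.46 CPM, and Cenpe, a kinetochore motor, at 8.01, 12.3 and 2.92 CPM. The other spindle, centromere and cytokinesis members, Cenpf, Tpx2, Kif23, Hmmr and Racgap1, were 1.88-fold to 3.45-fold lower in aneurysm than in room air. Cenpa was the exception, with 52.1, 46.0 and 31.7 CPM, a fold of 1.45.

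Replication genes were closer than mitotic genes between aneurysm and room air, but not between room air and control. Summed S phase members stood at 268, 349 and 283 CPM in control, room air and aneurysm macrophage-like cells, a ratio of 0.811 for aneurysm over room air (0.752 to 0.874) and of 1.30 for room air over control (1.15 to 1.47). Pcna stood at 77.7, 82.8 and 75.0 CPM, and Mcm6 at 34.4, 48.8 and 45.4 CPM. Among the other helicase subunits Mcm4 stood at 8.01, 15.3 and 15.6 CPM. Aneurysm and room air lay together for these genes and control was lower for both helicase subunits. Rrm2 moved most, with 6.41, 23.3 and 8.54 CPM, 2.72-fold lower in aneurysm than in room air. Tk1 stood at 12.02, 16.3 and 10.6 CPM. Counted per cell at equal depth, cells with a UMI of at least 3 of the 12 S phase members made up 2.97%, 3.23% and 2.10% of macrophage-like cells (9 of 303, 17 of 527 and 12 of 571). The exact intervals, 1.37 to 5.56, 1.89 to 5.11 and 1.09 to 3.64, overlap one another and those of the dividing cells in the same library. Of the broad members Stmn1 stood at 203, 180.02 and 92.5 CPM and Hmgb2, a chromatin protein, at 266, 247 and 156 CPM, both lowest in aneurysm, whereas Tubb5 stood at 354, 480.3 and 401 CPM.

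**Figure D4:**
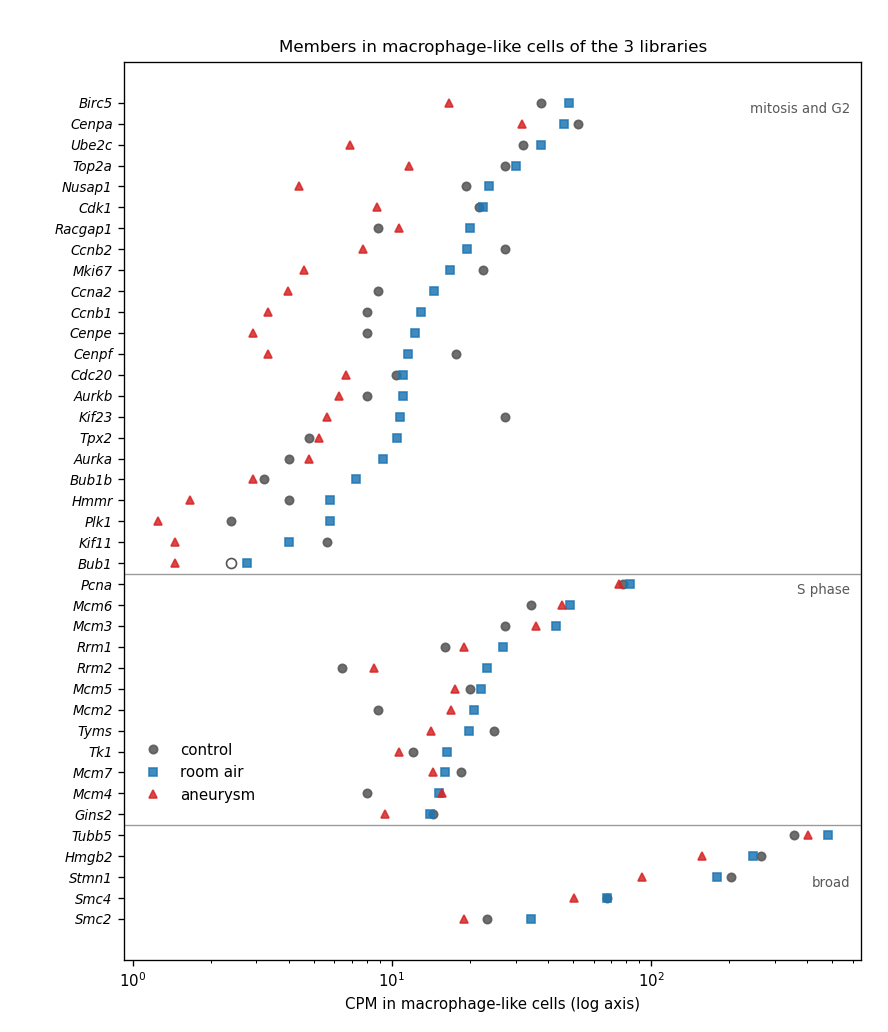
Level (CPM, log axis) of the 40 members in macrophage-like cells of the 3 libraries, grouped by role; the open circle marks Bub1 in control, which had 0 UMIs and is drawn at the floor of 3 UMIs. Aneurysm lies left of room air by at least 1.5-fold for 21 of 22 mitosis and G2 members tested and for 2 of 12 S phase members.

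Within dividing macrophage-like cells (17, 45 and 24 without thinning), summed mitosis and G2 members stood at 3393, 2251 and 1514 CPM in control, room air and aneurysm, while summed S phase members stood at 883, 883 and 891 CPM. These cells were chosen by the mitotic members themselves, and deeper libraries admit cells with fewer mitotic UMIs per depth, so their mitotic sums are a description; 5 of the 24 aneurysm cells held 68.7% of them. In the other macrophage-like cells the mitotic sum was 74.5, 91.3 and 56.3 CPM, close to the free RNA level in room air and above it in control and aneurysm. The direction of aneurysm against room air was the same in clusters 2 (220 against 535 CPM, ratio 0.411, 0.370 to 0.457), 1 (90.4 against 262 CPM) and 12 (Cd209f, Ccl8; 72.8 against 287 CPM). RNA of other lineages moved in the same class. Summed T cell markers stood at 64.9, 239 and 180 CPM in control, room air and aneurysm macrophage-like cells, with 0 of 8 markers at 0 in any library, and summed B cell markers at 107, 220 and 154 CPM, with only Pax5 at 0, in control. With the free RNA level subtracted, the ratio of aneurysm over room air was 0.371. Where clustering used all genes, 12 control, 19 room air and 5 aneurysm cells of the class fell in the cluster of 107 cells led by cell cycle genes. The ratio of aneurysm over room air was then 0.782.

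Room air and control macrophage-like cells differed less in these genes. Of 39 members 13 were at least 1.5-fold higher in room air, against 24% of genes tested, and 2, Kif23 and Cenpf, were lower, against 13.7%. The median log2 ratio was 0.35, against 0.12 over all genes. With the free RNA level subtracted the counts were 7 higher and 7 lower. Kif23, a cytokinesis motor, stood at 27.2 CPM in control and 10.8 in room air, and Cenpf at 17.6 and 11.5 CPM. Rrm2 was 3.63-fold higher in room air (1.77 to 8.65), Mcm2 stood at 8.81 and 20.8 CPM and Racgap1 at 8.81 and 20.002 CPM.

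The sum of 10 resident genes such as Lyve1, Folr2 and Cd163 was lower in dividing than in other macrophage-like cells. It stood at 9631 against 13428 CPM in control, 1103 against 2164 in room air and 1256 against 2157 in aneurysm. Dividing cells were placed more in cluster 2 than the class as a whole: it held 27 of the 45 dividing cells in room air and 16 of 24 in aneurysm, against 203 of 527 and 264 of 571 of all cells in the class. The part of this makeup in the lower sum was not tested. The 10 lipid-associated genes had close sums, 2622 against 2819 CPM, 18649 against 20590 CPM and 19621 against 17550 CPM, while single genes differed. Gpnmb, a membrane glycoprotein of lipid-laden macrophages, had a ratio of dividing over other cells of 0.508 in room air and 0.219 in aneurysm, and Trem2, a lipid receptor, 1.03 and 1.26. The matrix protease Mmp12 stood 1.99-fold higher in dividing cells of room air, but its ratio was 0.189 in aneurysm (UMIs in 32 of 45 and 5 of 24 dividing cells). In control it stood 2.21-fold higher, from 20 UMIs in only 2 of 17 dividing cells. Spp1, osteopontin, had a ratio of 0.669 in room air and 1.81 in aneurysm. Summed monocyte genes stood at 1097 against 946, 1339 against 1381 and 1729 against 1350 CPM.

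T cell-like cells showed a wider step between control and room air than macrophage-like cells, from a thin control class of 91 cells; the difference between the classes was not tested. Summed mitosis and G2 members stood at 125, 525 and 401 CPM in control, room air and aneurysm (23, 599 and 698 UMIs). Room air was 4.22-fold higher than control (2.78 to 6.70), and aneurysm over room air was 0.763 (0.683 to 0.852). In clusters made with all genes, 0 control, 9 room air and 6 aneurysm cells of the class fell in the cluster of 107 cells led by cell cycle genes. The ratio of room air over control was then 1.39. The 5 richest cells held 69.6%, 50.3% and 67.2% of these UMIs. Summed macrophage markers in the class stood at 693, 2211 and 696 CPM, and their part in the result was not tested. At equal depth 1 of 76, 9 of 410 (2.20%) and 8 of 565 cells (1.42%) were dividing. Mki67 and Top2a had 0 UMIs in control T cell-like cells, which allows up to 16.2 CPM. Mki67 stood at 22.8 CPM in room air and 9.76 in aneurysm and Top2a at 55.2 and 41.9 CPM. Top2a thus stood at least 3.40-fold higher in room air, and Mki67 at least 1.40-fold higher. Birc5 stood at 16.2, 54.4 and 23.5 CPM and Racgap1 at 10.8, 63.1 and 43.1 CPM, each with control lowest and room air highest. Of 27 members tested, 13 with UMIs in both libraries were at least 1.5-fold higher in room air than control. A further 7 had 0 UMIs in control, of which 5 were past 1.5-fold above the floor and Mki67 and Kif23 (at least 1.08-fold) were not, which makes 18. The share over all genes, which counts every gene at 0 in control as higher, was 42.8%, and by that rule 20 members were. Only Smc4 was lower, against 7.09% of genes. In aneurysm against room air 11 of 36 were lower, against 18% of genes, and 3 (Hmmr, Mcm3 and Tk1) higher, against 6.47%, with a median log2 ratio of -0.18 against -0.13 over all genes.

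The clusters of T cells differed in the order of the libraries, a difference that was not tested. Cluster 7 (Gzmk, Nkg7, Cd8a) held 215 room air but only 77 aneurysm and 2 control cells. Its mitotic sum was 626 CPM in room air and 225 in aneurysm, with 6 of 215 and 1 of 77 cells dividing. In cluster 8 (Lef1, Cd4) the mitotic sum was 62.2, 964 and 473 CPM in control, room air and aneurysm, with 0 of 33, 2 of 62 and 1 of 147 cells dividing. Cluster 13 (Izumo1r, Ikzf2, Icos) had the reverse order, with 232 CPM in room air and 609 in aneurysm, a ratio of 2.62 (1.84 to 3.83), and 1 of 58 and 4 of 84 dividing cells. In cluster 4 (Dapl1, Cd8b1) it was 54.7, 163 and 329 CPM. In cluster 13, 15 of 18 members tested were at least 1.5-fold higher in aneurysm than in room air, against 15.7% of genes, and 0 lower, against 13.5%. In cluster 8, 13 of 19 were lower, against 24.7%, and 1 higher, against 8.04%. The members were split in cluster 7, where 6 of 21 were higher, against 12%, and 7 lower, against 15.5%. With so few dividing cells these counts of members are a description. The 10 T effector genes summed to 8348 CPM in dividing against 13878 in other T cell-like cells of room air, and to 4442 against 3933 CPM in aneurysm. The chemokine Ccl5 carried much of the sum, with 4689 against 9730 CPM in room air. The granzyme gene Gzmk had the reverse order there, with 597 against 294 CPM (ratio 2.03, 1.46 to 2.77), and Nkg7, of cytotoxic granules, had ratios of 0.774 in room air and 0.538 in aneurysm.

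In cDC1-like cells the order of room air and aneurysm was the opposite of that in macrophage-like cells; the difference between the classes was not tested. At equal depth 1 of 29 control, 0 of 37 room air and 7 of 68 aneurysm cells were dividing (10.3%, 4.24 to 20.1), where 0 of 37 allows a share of up to 8.11% at 3 cells, or 9.49% by the exact interval. Without thinning the counts were 6 of 30, 4 of 37 and 13 of 68 (20%, 10.8% and 19.1%). The exact intervals there were 7.71 to 38.6, 3.03 to 25.4 and 10.6 to 30.5. Room air had the lowest share by both counts, but the intervals of all libraries overlap in each, so these shares do not order the libraries. Summed mitosis and G2 members stood at 513, 155 and 891 CPM (87, 53 and 656 UMIs), and aneurysm was 5.74-fold higher than room air (4.34 to 7.75), with 76.98% of the aneurysm UMIs in 5 cells. In clusters made with all genes, 4 control, 0 room air and 7 aneurysm cells of the class fell in the cluster of 107 cells led by cell cycle genes. The ratio of aneurysm over room air was then 0.656. Of 32 members 28 were at least 1.5-fold higher in aneurysm, against 16.8% of genes, and 2, Mcm4 and Tyms, lower, against 8.46%. The median log2 ratio was 1.29, against 0.09 over all genes. With only 53 mitosis and G2 UMIs in room air, most of those members reached 20 UMIs through aneurysm. The count is therefore a description. Summed macrophage markers in the class stood at 968, 2260 and 1243 CPM; their part in the result was not tested. Ube2c stood at 5.86 CPM in room air and 99.2 in aneurysm (ratio 16.9, 4.52 to 142). Birc5 stood at 17.6 and 105 CPM (5.95, 2.61 to 16.7). Ccna2, Cdc20 and Nusap1 had 0 UMIs in room air and stood at least 4.33-fold, 4.64-fold and 6.19-fold higher in aneurysm. Replication genes moved less, but mostly in the same direction. Of 11 S phase members tested, 7 were at least 1.5-fold higher in aneurysm than in room air and 2 lower. Their median log2 ratio was 0.87. Summed, the S phase members stood at 726, 433 and 607 CPM in control, room air and aneurysm. Pcna stood at 93.7 CPM in room air and 106 in aneurysm, and Mcm4, 1 of the 2 lower genes, at 49.8 and 28.5 CPM. S phase cells made up 10.3%, 10.8% and 11.8% of the class. In room air against control 7 of 11 members were lower, against 9.79% of genes, and 1 higher, against 26%.

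**Figure D5:**
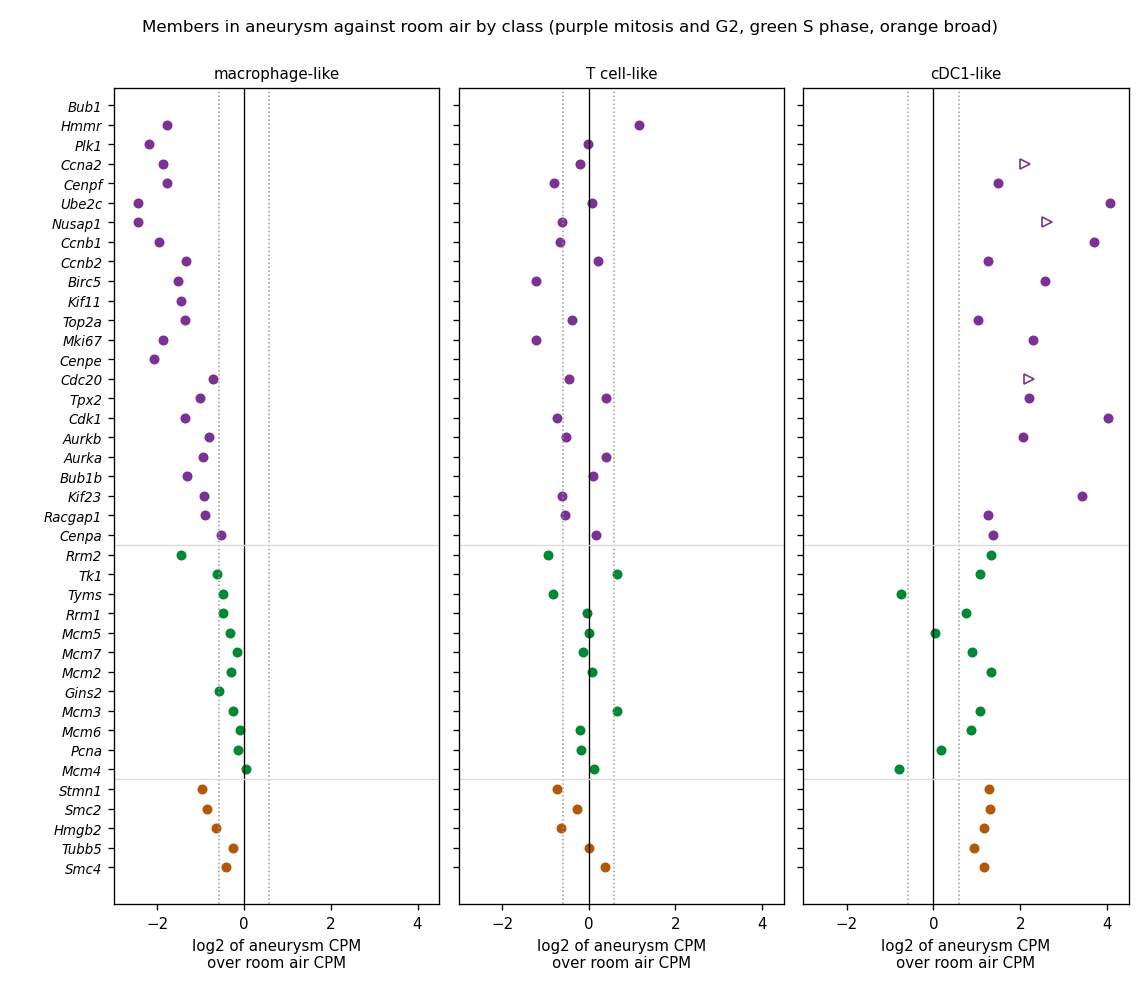
Log2 ratio of aneurysm over room air for the members with at least 20 UMIs in macrophage-like, T cell-like and cDC1-like cells, with dotted lines at 1.5-fold; open triangles are lower bounds against the floor of 3 UMIs. In macrophage-like cells 26 of 39 members lie below the lower line, in cDC1-like cells 28 of 32 lie above the upper line, and in T cell-like cells 3 of 36 lie above and 11 below.

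Other lineages differed widely in level. Plasma cell-like cells, absent from control, had the highest shares of dividing cells, with 4 of 28 room air cells (14.3%, 4.03 to 32.7) and 7 of 23 aneurysm cells (30.4%, 13.2 to 52.9), and the 2 intervals overlap. NK-like cells had 1 of 20, 0 of 44 and 5 of 132 dividing (3.79%), and their mitotic sum was 192 CPM in room air and 661 in aneurysm (3.45, 2.31 to 5.36). In control it was 1195 CPM, of which 1 cell held 93.1%. Of 20 members 8 were higher in aneurysm than in room air in NK-like cells, against 16.1% of genes, and 0 lower, against 15.8%. cDC2-like cells had 2 of 21, 1 of 128 and 4 of 286 dividing. Of 25 members there, 4 (Ccnb2, Cenpa, Rrm1 and Rrm2) were higher in aneurysm than in room air, against 8.99% of genes, and 4 (Mcm2, Mcm3, Mcm6 and Tk1) lower, against 9.18%. Neutrophil-like cells, which leave the marrow after their last division, had 0 of 79 and 1 of 90 dividing in room air and aneurysm, but 6 of 79 and 4 of 90 without thinning. Of 14 members there 2 were higher in aneurysm, against 8.15% of genes, and 1 lower, against 11.9%. Cluster 11, with T cell and macrophage genes mixed, had 11 of 20 members lower in aneurysm than in room air, against 11.3% of genes, and 1 higher, against 7.96%. B cell-like cells were nearly without dividing cells, with 0 of 29, 0 of 221 (which allows up to 1.36% at 3 cells, or 1.66% by the exact interval) and 2 of 445 (0.449%). Their mitotic sum of 83.6, 86.4 and 164 CPM rested on 99, 221 and 445 cells; 3 of 18 members were higher in aneurysm than in room air, against 7.36% of genes, and 2 lower, against 16.7%. When cells were instead classed by their own markers, the ratio of these sums turned from 1.90 to 0.437. Monocyte-like cells, the recruited precursors of macrophages, had 0 of 51, 0 of 103 and 1 of 249 dividing. Of 4 members tested there against control, room air had 2, Stmn1 and Tubb5, higher, against 27.8% of genes, and 0 lower, against 8.45%. In aneurysm against room air 4 of 12 were higher, against 11.8%, and 2 lower, against 11%. Gamma-delta T-like cells had 0 of 64 in room air and 0 of 58 in aneurysm. Mature DC-like cells had 0 of 37 and 0 of 80. Cluster 17, in which most cells held CD31 RNA, had 0 dividing cells in each library. That allows up to 6.82%, 8.11% and 11.5% at 3 cells, or 8.04%, 9.49% and 13.2% by the exact interval. Its mitotic sum of 31.2, 42.0 and 83.8 CPM (4, 7 and 11 UMIs) lay near the free RNA level in control, below it in room air and above it in aneurysm. Outside cluster 17, Pecam1 was detected in 1 of 34, 11 of 93 and 18 of 105 dividing cells, counted without thinning.

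At equal depth, 14 control, 20 room air and 27 aneurysm cells had at least 3 mitosis and G2 members only, 4, 14 and 17 had at least 3 of both lists, and 14, 36 and 39 had at least 3 S phase members only. Cells with at least 3 S phase members made up 2.80%, 2.75% and 2.02% of cells. NK-like cells of aneurysm had 9 of 132 such cells (6.82%) and plasma cell-like cells 14.3% in room air and 21.7% in aneurysm.

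Other genes of the cycle followed the members by phase. In macrophage-like cells of aneurysm against room air, 30 of 57 other G2 and mitosis genes tested were at least 1.5-fold lower and 0 higher, against 7.55% and 3.54% of all genes, with a median log2 ratio of -0.66. Of 29 other S phase genes 6 were lower and 0 higher, with a median of -0.22. Upstream of these the 9 G1 cyclins and kinases tested had 1 lower gene and a median of -0.15, and the 14 CDK inhibitors and arrest genes had 2 higher, 2 lower and a median of -0.01, against -0.03 over all genes. Over all cells Ccnd2, a D-type cyclin of G1, stood at 137, 159 and 140 CPM in control, room air and aneurysm, and its partner kinase Cdk4 at 91.8, 94.0 and 99.96 CPM. In cDC1-like cells 16 of 25 other G2 and mitosis genes and 6 of 14 other S phase genes were at least 1.5-fold higher in aneurysm, against 16.8% of all genes, with median log2 ratios of 0.76 and 0.53, against 0.09. Between dividing and other cells of all libraries the G1 cyclins Ccnd1, Ccnd2 and Ccnd3 had ratios of 1.27, 0.789 and 0.977, and Cdk4 had 1.81. Of the arrest genes, Cdkn1a, which encodes p21, had a ratio of 0.938, and the antiproliferative Btg1 0.520. E2f1, an activator of S phase genes, had a ratio of 2.73.

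Outside the 40 members, the genes highest in dividing over other cells were again those of the cycle. The 15 with the highest ratio and at least 50 UMIs in dividing cells ran from Fam64a at 146-fold and Esco2, which establishes sister chromatid cohesion, at 144-fold to Nuf2, a kinetochore protein, at 44.2-fold. Between them stood Pbk, a mitotic kinase (75.0-fold), 2810417H13Rik, the PCNA-associated factor (74.8-fold), Ncapg of condensin (67.9-fold) and the replication histone Hist1h2ap (60.8-fold). Kif20a, Cdca3, Nek2 and Prc1 stood 57.0-fold, 51.5-fold, 49.9-fold and 47.2-fold higher. Of the 15, Neil3, a DNA glycosylase, Ska1 of the kinetochore, Cep55 of abscission and Cdkn3, a phosphatase of cyclin-dependent kinases, were in none of the lists compared here, at 49.7-fold, 48.6-fold, 48.0-fold and 47.7-fold.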

How the data were processed

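The values the authors deposited are counts of UMIs, whole numbers for each gene in each barcode. The submitters' processing notes name STAR, Cell Ranger and the build mm10; versions are not given in the sources used here. Listed were 782, 1851 and 2842 barcodes (control, room air, aneurysm), beside 738, 1736 and 2685 cells per the labels, which also state viabilities of 73%, 91% and 94%. The Smoke group of the labels was not analysed here. Barcodes with at least 200 genes and at most 10% mitochondrial UMIs were kept. Scrublet, in scanpy 1.11.5, marked 2, 1 and 0 barcodes at its automatic limit, which was not used; the 5, 27 and 64 barcodes with the highest scores, 0.8% per 1000 barcodes, were removed. Median scores were 0.00828, 0.0192 and 0.0353 in dividing cells and 0.00410, 0.00923 and 0.0129 in other cells.

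Cells were scaled to 10000 UMIs, log-transformed and clustered together from 2000 variable genes, 30 components and 15 neighbours with Leiden at resolution 1 (leidenalg 0.10.2), giving 24 clusters. A name needed a marker score of 0.6, a limit set after the clusters were seen, and 3 markers detected in 10% of cells; 145 of 155 marker symbols were in the files. Clusters kept by number held 10.1%, 5.60% and 4.76% of cells. The macrophage-like clusters 1, 2, 5 and 12 each had 0 macrophage markers among their 10 leading genes and 0 of another class.

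UMIs were summed per class and library and given as CPM. Classes needed 25 cells in both libraries of a ratio. Ratios carry exact conditional binomial 95% intervals and shares exact Clopper-Pearson 95% intervals. A level of 0 allows up to 3 UMIs of the class total. Counts at 3' ends do not depend on transcript length. Gene positions came from GENCODE for mm10. Scripts were tested on simulated data. Named genes were all 40 members, the most abundant genes of the other lists, the 15 other genes highest in dividing cells, and genes of the macrophage and T effector lists; another T cell list is not reported here. The members and lists were chosen with earlier results of these data known.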

Additional observations from a re-analysis of the deposited data

How the results depend on the processing

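No paired analysis was possible because each group is 1 library with no replicate number. The share of dividing cells depends on depth. Over all cells it was 1.29% in control and 1.15% in aneurysm when thinned to 1000 UMIs, and 5.28%, 3.00% and 2.30% in control, room air and aneurysm at 2500 UMIs. Without thinning it was 4.40%, 5.11% and 3.78%. With a limit of 2 members it was 3.02% in room air and 2.34% in aneurysm, and with a limit of 5 it was 0.973% in aneurysm. In macrophage-like cells it was 2.18% in control at 1000 UMIs, and 8.54% in room air and 4.20% in aneurysm without thinning. In T cell-like cells it was 0% in control at 1000 UMIs or a limit of 5 members, 0.531% in aneurysm at that limit, and 5.34% in room air at 2500 UMIs. Clustering on all genes, which by construction gathers dividing cells in a cluster of their own, left 0.680%, 0% and 0.148% in macrophage-like cells and 0.239% and 0.336% in T cell-like cells of room air and aneurysm.

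For the summed mitosis and G2 members, clusters from all genes gave a macrophage-like ratio of aneurysm over room air of 0.782, a T cell-like ratio of room air over control of 1.39, and cDC1-like ratios of 1.12 (room air over control) and 0.656 (aneurysm over room air), both reversed. Under every other alternative the macrophage-like ratio of aneurysm over room air lay between 0.359 and 0.421, with 22 to 28 members lower. The macrophage-like ratio of room air over control was 0.9499 with free RNA subtracted. The T cell-like ratio of aneurysm over room air was 0.556 with cells classed by their own markers, 0.867 without ribosomal and mitochondrial genes and 0.628 without the richest cell. Classing cells by their own markers reversed B cell-like aneurysm over room air (0.437) and monocyte-like room air over control (0.697), and leaving out the richest cell reversed NK-like room air over control (1.29). The causes were not tested.

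Counts of members past 1.5-fold moved as follows. Over all cells, aneurysm over room air, 1 was higher with median-of-ratios factors, and 2 were lower with those factors or without ribosomal and mitochondrial genes. In macrophage-like cells, room air over control, 7 were higher and 7 lower with free RNA subtracted, and 1 was lower without doublet removal or without the richest cell. In T cell-like cells, room air over control, 32 were higher at a minimum of 5 UMIs and 9 at 50, and 3 were lower without ribosomal and mitochondrial genes, 2 with median-of-ratios factors and 2 with free RNA subtracted. In T cell-like cells, aneurysm over room air, 1 was higher at 50 UMIs and 5 with free RNA subtracted, and 5 were lower without ribosomal and mitochondrial genes, 6 with median-of-ratios factors and 7 at 50 UMIs. Without doublet removal 61 results were unchanged and 2 moved. The comparisons with clusters 11 and 21 added and with cluster 2 alone were chosen after seeing the data. Depth limits the control library most, since 130 of its cells fell under 1500 UMIs.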
